A study of Mus musculus with 72 samples.

Results

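The genes described here are 9 transcription factors that mark position along the head-to-tail axis of the early neural plate, followed in mouse embryonic stem cells with and without the nucleoporin Nup133 while the cells left pluripotency and met retinoic acid. Six3, Hesx1, Lhx2, Lhx5 and Fezf2 are forebrain factors, En1 and En2 mark the midbrain and the midbrain-hindbrain boundary, and Gbx2 and Egr2 are hindbrain factors. The set was given by name, each gene was represented by its Ensembl transcript with the highest total count, and these are 9 of the 45321 genes that could be matched in the deposited counts. All 9 passed the filter on low counts and were tested, among 18273 genes in all.

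RNA was measured by stranded, polyA-selected sequencing in 18 biological samples, each read as 4 technical libraries that were added up. Control cells came from HM1 (Nup133+/+, 40 chromosomes, XY; 2 biological replicates) and from 1A4, a line derived from a blastocyst (Nup133+/+, Sox1gfp/+, 40 chromosomes, XY). Knockout cells were lines 14 and 19, both derived from HM1 by CRISPR/Cas9 (Nup133-/-, 40 chromosomes, XY, given as likely for line 19), and the blastocyst-derived line 319 (Nup133merm/merm, Sox1gfp/+, 42 chromosomes, XX, with additional copies of chromosomes 8 and 12). The Sox1gfp/+ allele and the blastocyst origin are shared by 1A4 and 319, and the sex chromosomes and chromosome number differ between them. None of the 9 genes lies on chromosome 8, 12, X or Y.

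Every sample came from cells kept in serum with leukaemia inhibitory factor (LIF) on mouse fibroblast feeders, which were removed by a short plating step. Day 0 samples were taken then. Day 2 samples had grown in N2B27, a serum-free medium that favours neural differentiation, without LIF, and day 3 samples had received 1 µM all-trans retinoic acid for the last 24 h. Retinoic acid was given to all day 3 samples, so the step from day 2 to day 3 joins a day of culture with the retinoid and the share of each cannot be told apart.

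The early neural plate acquires an anterior character by default, kept by antagonists of Wnt, BMP and Nodal signals, and is turned towards hindbrain and spinal cord by Wnt, FGF and retinoic acid. Fields of homeodomain and zinc-finger factors then hold the borders, with Otx2 ahead of the midbrain-hindbrain boundary and Gbx2 behind it repressing each other. Several of these factors also have a life before the brain: Gbx2 is a LIF target in embryonic stem cells, Hesx1 is transcribed in them, and Egr2 is an immediate early gene induced by serum.

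Total counts on genes ran from 16.5 M to 54.4 M per sample, and line 19 at day 2 was the shallowest. Nup133 was at 180 to 323 CPM (counts per 1000000 after TMM scaling) in the 9 control samples and at 14.3 to 37.1 CPM in the 9 knockout samples, so every sample matched its label. The summed level of 5 pluripotency markers (Pou5f1, Nanog, Zfp42, Esrrb, Sox2) was 3213 to 3463 CPM in day 0 controls and 3680 to 4503 CPM in day 0 knockouts, which did not overlap. It was 1149 to 1197 and 1168 to 1424 CPM at day 2 and 441 to 502 and 252 to 536 CPM at day 3, with its part in the levels of the 9 genes not tested. In these bulk samples a lower level may be fewer cells that express a gene or less RNA per cell, and the 2 cannot be told apart.

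Sequence before a RefSeq transcription start is shown for 3 of the 9 genes. Their levels moved with the culture steps and a window lies at or near their counted start. Fezf2 rose at the retinoic acid step in both genotypes, Gbx2 in controls, and in controls Egr2 fell when serum and LIF were withdrawn. Six3, Hesx1 and En1 meet the same conditions and are not shown, so the 3 genes are a choice among those that do. The RefSeq start lies 94 bases from the start of the counted transcript for Fezf2, 3 for Gbx2 and 0 for Egr2. The windows are from RefSeq on GRCm38.p6, 5′ to 3′ on the gene's strand, without bases that lie in an annotated exon of a protein-coding gene. This leaves out the 94 bases next to the RefSeq start for Fezf2 and 3 for Gbx2. Fezf2 is chr14:12345960-12346115 (minus strand), Gbx2 is chr1:89931180-89931426 (minus strand) and Egr2 is chr10:67537619-67537868 (plus strand). Capitals mark a CArG box, the site of serum response factor.
Fezf2: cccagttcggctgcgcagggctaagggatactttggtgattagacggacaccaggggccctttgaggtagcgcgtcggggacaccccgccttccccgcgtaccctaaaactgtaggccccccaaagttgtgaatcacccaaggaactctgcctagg
Gbx2: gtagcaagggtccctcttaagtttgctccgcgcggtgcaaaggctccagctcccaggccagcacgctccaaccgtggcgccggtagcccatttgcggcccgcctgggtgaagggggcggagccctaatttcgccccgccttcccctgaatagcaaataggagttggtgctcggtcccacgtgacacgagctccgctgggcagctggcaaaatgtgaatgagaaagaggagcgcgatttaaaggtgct
Egr2: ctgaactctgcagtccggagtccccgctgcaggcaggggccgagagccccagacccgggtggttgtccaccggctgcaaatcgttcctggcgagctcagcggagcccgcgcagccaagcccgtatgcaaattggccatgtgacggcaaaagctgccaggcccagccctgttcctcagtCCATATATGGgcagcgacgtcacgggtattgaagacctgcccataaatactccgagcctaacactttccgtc

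A window was found for 7 of the 9 genes, and for 6 of them its RefSeq start lay within 100 bases of the start of the transcript whose counts are used. The 250 bases before the RefSeq start of these 6 genes (Six3, Hesx1, Fezf2, En1, Gbx2, Egr2) were searched on both strands for 4 motifs: the nuclear receptor half-site AGGTCA, the homeodomain core TAATTA, the Otx-type core TAATCC and the CArG box. The single match was the CArG box of Egr2, whose first base lies 72 bases before the start. Among 32851 RefSeq windows of the same length, 14.0% held AGGTCA, 4.8% held TAATTA, 6.3% held TAATCC and 1.5% held a CArG box. A match is a stretch of letters, and its absence from 250 bases says nothing about binding elsewhere.

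**Figure D1:**
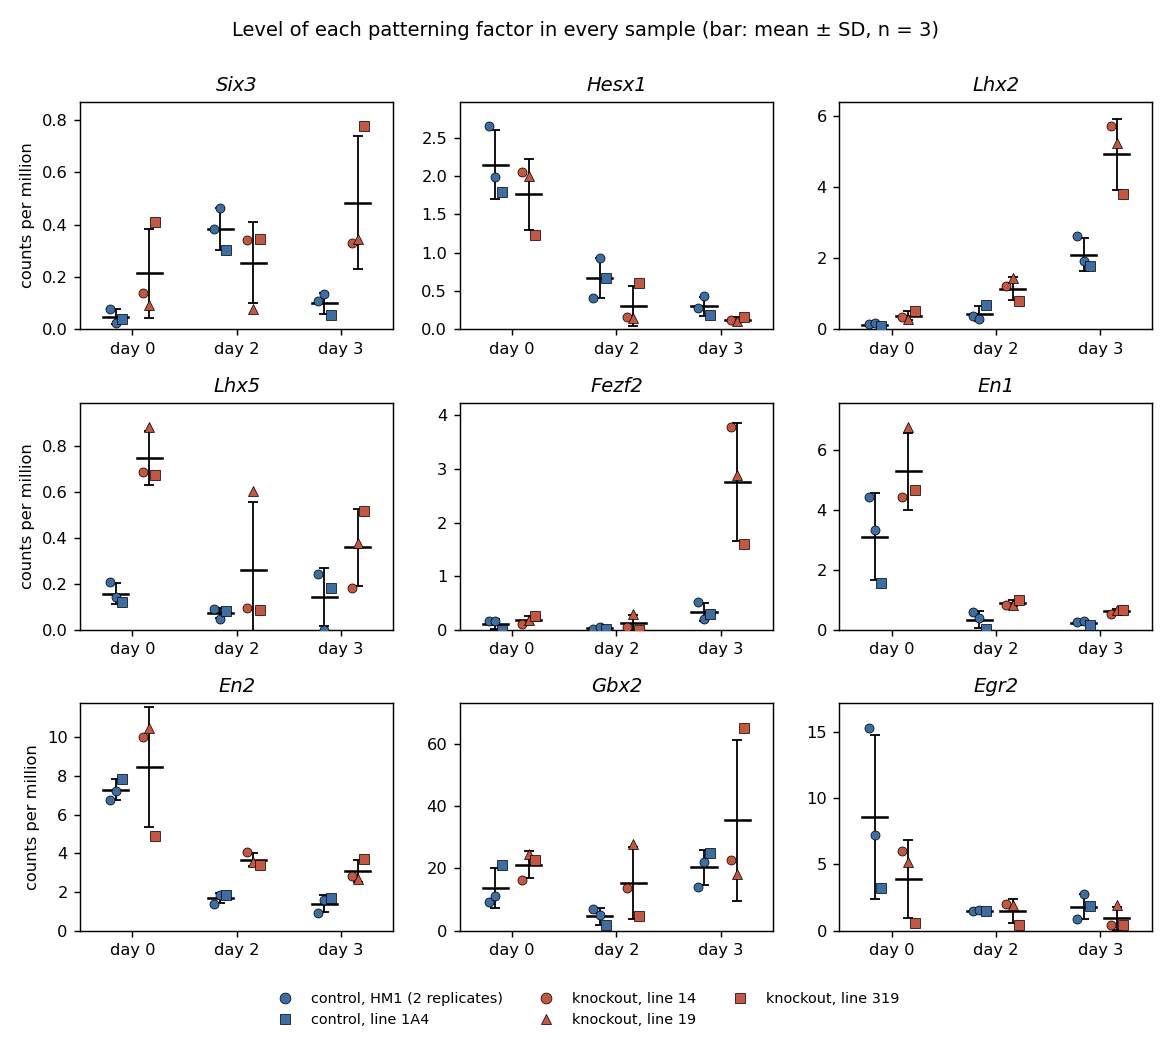
Level of each of the 9 genes in CPM (linear vertical axis, its own scale in each panel) at days 0, 2 and 3, with 1 point per sample, a bar at the mean and whiskers of 1 SD (n = 3 per group). Lhx2 and Fezf2 are highest at day 3 with the knockout points above all control points, while Hesx1, En1, En2 and Egr2 have their highest control means at day 0.

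Levels of different genes were compared per kilobase of the counted transcript. Gbx2 was the most abundant of the 9 in both genotypes on every day, at 6.43 ± 2.97 CPM per kilobase in day 0 controls (SD, n = 3) and 9.94 ± 2.07 in day 0 knockouts. In day 0 controls Egr2 (2.89 ± 2.08), En2 (2.06 ± 0.156), Hesx1 (1.88 ± 0.393) and En1 (1.18 ± 0.551) followed, and the intervals of 1 SD around these 4 means overlapped between neighbours in this order. Lhx5 (0.0585 ± 0.0169), Fezf2 (0.0494 ± 0.0429), Lhx2 (0.0444 ± 0.0156) and Six3 (0.0129 ± 0.00754) were far below them on the same scale. In controls at the stem cell stage, then, the midbrain and hindbrain factors and Hesx1 were present and the other 4 forebrain factors were near the detection limit. In day 0 knockouts Lhx5 was at 0.278 ± 0.0438 CPM per kilobase, the highest of these 4.

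By day 3 the order had changed. In controls Lhx2 came next after Gbx2, at 0.738 ± 0.159 CPM per kilobase against 9.56 ± 2.67 for Gbx2, and Egr2 followed at 0.609 ± 0.321, within the spread of Lhx2. In knockouts Lhx2 (1.73 ± 0.348) and Fezf2 (1.26 ± 0.501) came next after Gbx2 and did not differ from each other beyond their spread, while Hesx1 was last at 0.109 ± 0.0239. Fezf2 in day 3 controls was at 0.152 ± 0.0734 CPM per kilobase, sixth of the 9.

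The first comparison asks how the 9 genes moved when the cells left serum and LIF. In the control lines 6 of 9 were called from day 0 to day 2 (edgeR quasi-likelihood test, Benjamini-Hochberg adjusted p below 0.05 over all genes tested), where 35.2% of all genes were called. The forebrain factors Six3 and Lhx2 rose (19.7% of all genes were called higher), and Hesx1, En1, En2 and Egr2 fell (15.5% were called lower). In the knockout lines 4 of 9 were called, against 35.9% of all genes: Lhx2 rose (20.8% called higher) and Hesx1, En1 and En2 fell (15.1% called lower). The median change of the 9 genes was -1.68 in controls and -1.27 in knockouts on the log2 scale, beside 0.01 and 0.06 over all genes.

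Six3, a homeodomain repressor of Wnt genes needed for the anterior forebrain and eye, was at 0.078, 0.024 and 0.0399 CPM in day 0 controls (HM1 replicate 1, HM1 replicate 2 and 1A4, the order used throughout) and at 0.382, 0.465 and 0.303 CPM at day 2. The day 0 control values are 3, 1 and 1 counts, so the pooled ratio of day 2 to day 0 was 7.98 with a 95% counting interval of 3.21 to 25.6, which covers counting error only. Six3 in these controls passed the test (adjusted p 0.0037, edgeR), but not without HM1 replicate 2 (adjusted p 0.076). In knockouts it was at 0.137, 0.093 and 0.408 CPM at day 0 (lines 14, 19 and 319, the order used throughout) and 0.342, 0.0754 and 0.346 CPM at day 2. All 3 controls were higher at day 2 than any at day 0, whereas the knockout days overlapped (0.45 ± 0.58 SE on the log2 scale, adjusted p 0.58, edgeR).

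Hesx1, a paired-like homeodomain repressor of the anterior neural plate and pituitary, was at 2.65, 1.99 and 1.79 CPM in day 0 controls and 0.404, 0.93 and 0.667 CPM at day 2. In knockouts it was at 2.06, 2.00 and 1.22 CPM at day 0 and 0.152, 0.151 and 0.605 CPM at day 2. It fell in both genotypes, with no overlap between the days, by 1.68 ± 0.44 SE in controls and 2.54 ± 0.51 SE in knockouts on the log2 scale (adjusted p 0.0083 and 0.0013, edgeR). The control call was lost without HM1 replicate 1 (adjusted p 0.17).

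Lhx2, a LIM-homeodomain factor of the eye field and cortex, was at 0.13, 0.168 and 0.0798 CPM in day 0 controls and 0.359, 0.279 and 0.667 CPM at day 2. Its knockout values were 0.343, 0.279 and 0.51 CPM at day 0 and 1.20, 1.43 and 0.778 CPM at day 2. Every day 2 sample exceeded every day 0 sample of its genotype, and the rises were 1.73 ± 0.46 SE and 1.54 ± 0.39 SE (log2, adjusted p 0.0085 and 0.0063, edgeR). The control rise was 1.08 without 1A4 (adjusted p 0.13), and its call was also lost without HM1 replicate 1 (adjusted p 0.057) and in the HM1 lines alone (adjusted p 0.06). The knockout call was lost without line 14 or line 19 (adjusted p 0.076 and 0.062).

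En1 and En2 are homeodomain repressors of the midbrain and anterior hindbrain that act downstream of Wnt1 and Fgf8. En1 was at 4.42, 3.34 and 1.56 CPM in day 0 controls and 0.584, 0.395 and 0.0404 CPM at day 2, with knockout values of 4.42, 6.76 and 4.65 CPM and then 0.836, 0.829 and 0.994 CPM. En2 was at 6.76, 7.23 and 7.86 CPM in day 0 controls and 1.39, 1.81 and 1.82 CPM at day 2, with knockout values of 10.01, 10.5 and 4.92 CPM and then 4.05, 3.54 and 3.41 CPM. Neither gene's days overlapped in either genotype. On the log2 scale En1 fell by 3.23 ± 0.50 SE in controls and 2.55 ± 0.48 SE in knockouts, and En2 fell by 2.12 ± 0.30 SE and 1.20 ± 0.30 SE (adjusted p from 9.3e-05 to 0.0055, edgeR). The knockout call of En2 was lost without line 14 (adjusted p 0.058) and stood at the threshold of 0.05 without line 19, not below it.

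Of the hindbrain factors, Egr2 fell in controls and Gbx2 was not called. Egr2, known as Krox20 and needed for alternate segments of the hindbrain, was at 15.3, 7.23 and 3.19 CPM in day 0 controls and 1.48, 1.56 and 1.46 CPM at day 2. It fell by 2.24 ± 0.67 SE in controls (log2, adjusted p 0.016, edgeR), and the fall was 1.54 without HM1 replicate 1 (adjusted p 0.18), which had the highest day 0 level. The call was also lost without HM1 replicate 2 (adjusted p 0.11) and with no filter on low counts (adjusted p 0.051). In knockouts Egr2 was at 5.97, 5.14 and 0.53 CPM and then 2.02, 1.96 and 0.432 CPM, and the change of -1.27 ± 0.67 SE was not called (adjusted p 0.15, edgeR). Other immediate early genes were lower too: 8 of 9 were called lower in controls and 7 of 9 in knockouts, with medians of -1.86 and -2.28. Of all genes 15.5% and 15.1% were called lower. Fos, one of these early genes, went from 194 to 4.22 CPM in controls (log2 change -5.25 ± 0.85 SE, adjusted p 0.00023, edgeR).

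Gbx2 was at 9.18, 11.1 and 21.0 CPM in day 0 controls and 6.94, 4.91 and 1.74 CPM at day 2. The control groups did not overlap, but the change of -1.54 ± 0.63 SE missed the threshold (adjusted p 0.068, edgeR). In knockouts it was at 16.2, 24.7 and 22.7 CPM and then 13.6, 27.8 and 4.80 CPM, where line 19 kept its level and line 319 did not. All 8 genes of the LIF and STAT3 target list were called lower in each genotype over the same step, with medians of -3.21 and -3.87. Beside them 15.5% of all genes were called lower in controls and 15.1% in knockouts. Klf4, a pluripotency factor of that list, went from 297 to 7.78 CPM in controls (log2 change -5.26 ± 0.54 SE, adjusted p 6.3e-06, edgeR).

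Lhx5 and Fezf2 were scarce at both days. Lhx5, a LIM-homeodomain factor of the hypothalamus and hippocampus, was at 0.208, 0.144 and 0.12 CPM in day 0 controls and 0.0899, 0.0465 and 0.0808 CPM at day 2. In knockouts it was at 0.686, 0.883 and 0.673 CPM and then 0.095, 0.603 and 0.0864 CPM. The knockout change of -1.86 ± 0.73 SE was not called (adjusted p 0.06, edgeR), and without the shallow day 2 sample of line 19 it was -2.98 (adjusted p 0.0045).

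Fezf2, a zinc-finger repressor of the forebrain and of deep-layer cortical neurons, was at 0.156, 0.168 and 0 CPM in day 0 controls and 0.0225, 0.0465 and 0.0202 CPM at day 2. The last 3 values are 1, 2 and 1 counts, and the 0 of 1A4 allows up to 0.12 CPM (3 counts). Day 0 knockouts were at 0.103, 0.186 and 0.265 CPM, and day 2 knockouts at 0.057, 0.302 and 0 CPM, where 0 allows up to 0.13 CPM. No change of Fezf2 between these days was called (adjusted p 0.15 in controls and 0.25 in knockouts, edgeR).

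**Figure D2:**
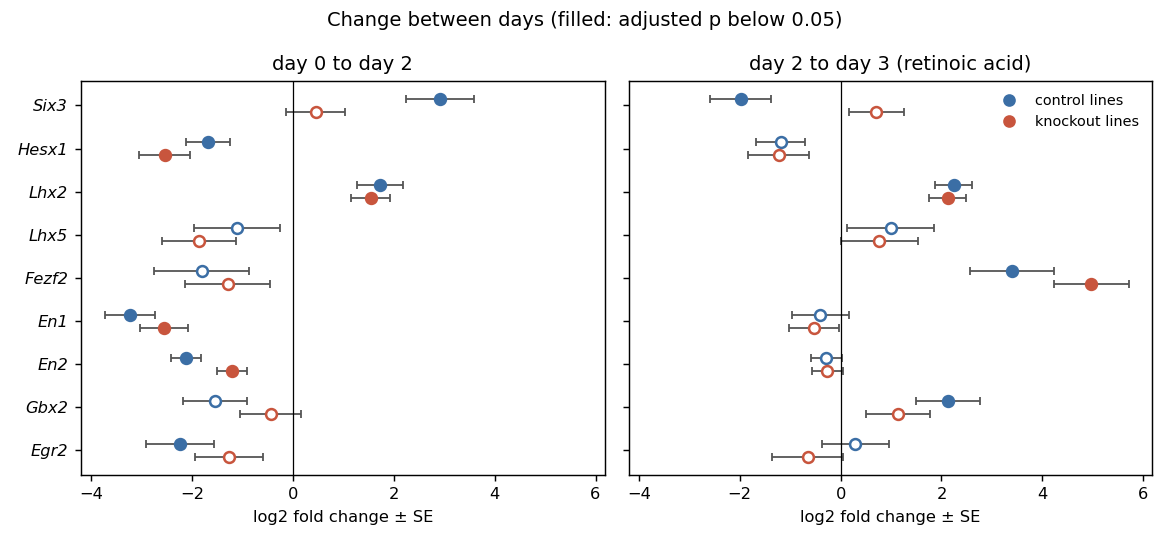
Log2 fold change of each gene between days (horizontal axis, whiskers 1 SE) in control and knockout lines, from day 0 to day 2 and from day 2 to day 3, when retinoic acid was added. Filled points have an adjusted p below 0.05 and open points do not. Lhx2 is filled in all 4 comparisons. In controls the fitted value of Six3 from day 0 to day 2 and those of Fezf2 over both steps rest on a day with 1 to 3 counts per sample. In knockouts those of Fezf2 rest on 0 to 4 counts per sample at day 2.

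The next comparison asks what happened over the day with retinoic acid. In controls 4 of 9 genes were called from day 2 to day 3, beside 21.4% of all genes: Lhx2, Fezf2 and Gbx2 rose (12.5% of all genes were called higher) and Six3 fell (8.92% were called lower). In knockouts 2 of 9 were called, Lhx2 and Fezf2, both higher, beside 33.6% of all genes (17.6% higher and 16% lower). The rising genes thus include 2 forebrain factors and, in controls, 1 hindbrain factor. The calls in controls fell to 1 gene (Lhx2) without HM1 replicate 1 and to 2 (Lhx2 and Fezf2) without HM1 replicate 2 or without 1A4.

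Lhx2 reached 2.61, 1.90 and 1.77 CPM in day 3 controls and 5.70, 5.22 and 3.8 CPM in day 3 knockouts. All 6 values lay above every day 2 value. The rise from day 2 was 2.24 ± 0.37 SE in controls and 2.12 ± 0.36 SE in knockouts on the log2 scale (adjusted p 0.00056 and 0.00046, edgeR).

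Fezf2 reached 0.511, 0.2 and 0.286 CPM in day 3 controls and 3.79, 2.88 and 1.60 CPM in day 3 knockouts. Against the 4 counts of the 3 day 2 controls, the pooled ratio was 11.7 with a 95% counting interval of 4.19 to 45.2 (adjusted p 0.0082, edgeR). In knockouts the pooled ratio was 37.2 with an interval of 17.9 to 93.1, and the fitted rise was 4.97 ± 0.74 SE (log2, adjusted p 0.00016, edgeR). The day 3 samples of each genotype were all above its day 2 samples.

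Six3 moved the other way in controls, to 0.108, 0.134 and 0.0521 CPM at day 3, all below the day 2 controls (log2 change -1.98 ± 0.61 SE, adjusted p 0.03, edgeR). That call was lost without any one of the 3 control series (adjusted p 0.16, 0.16 and 0.075) and without line 14 (adjusted p 0.052). In knockouts Six3 was at 0.331, 0.343 and 0.776 CPM at day 3, overlapping day 2 (0.71 ± 0.54 SE, adjusted p 0.33, edgeR). The difference between genotypes in the step was tested by the interaction term and was 2.69 ± 0.82 SE, with an unadjusted p of 0.0048 and an adjusted p of 0.39 (edgeR). No interaction term was called for any of the 9 genes (edgeR). Of all genes, 0.0219%, 0.0383% and 0.427% were called from day 0 to day 2, day 2 to day 3 and day 0 to day 3. An unadjusted p below 0.05 was found for 2, 1 and 2 of the 9, and for 1308, 1626 and 1986 of all 18273 genes (edgeR).

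Gbx2 returned to 14.1, 22.2 and 25.0 CPM in day 3 controls, above all day 2 controls (2.13 ± 0.63 SE, adjusted p 0.024, edgeR). Its knockout values were 22.7, 18.3 and 65.4 CPM, and because line 19 had been at 27.8 CPM on day 2 the days overlapped (1.14 ± 0.63 SE, adjusted p 0.17, edgeR). Without line 19 at day 2 the knockout rise was 1.82 with an adjusted p of 0.047. A noncoding gene on the opposite strand, D130058E05Rik, shares 946 of the 2135 exon bases counted for Gbx2. The library protocol keeps strand, and in these counts genes inside an exon of another gene on the opposite strand had a median of 0.0026 times the outer gene's count per base.

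Hesx1, En1, En2, Lhx5 and Egr2 were not called over this step in either genotype. Hesx1 was at 0.269, 0.434 and 0.182 CPM in day 3 controls and 0.116, 0.103 and 0.155 CPM in knockouts, the lowest knockout mean of the 3 days. Lhx5 was at 0.242, 0 and 0.182 CPM in controls, where 0 allows up to 0.1 CPM, and at 0.182, 0.378 and 0.517 CPM in knockouts. Egr2 was at 0.834, 2.74 and 1.85 CPM in controls and 0.446, 1.92 and 0.414 CPM in knockouts, with line 19 inside the control range and lines 14 and 319 below it.

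The other genes of the axis, listed by region, moved over the same step as follows. Of all genes 12.5% were called higher and 8.92% lower in controls, and 17.6% higher and 16% lower in knockouts. In the hindbrain list 13 of 15 tested genes rose in controls and 15 of 15 in knockouts, with medians of 6.22 and 6 (0 over all genes), among them in controls Hoxb2 from 0.0807 to 27.1 CPM and Hoxb1 from 0.0967 to 26.9 CPM. In the forebrain list, which leaves out the 5 factors above, 6 of 16 rose and 3 fell in controls and 8 rose and 3 fell in knockouts. Otx2, the anterior counterpart of Gbx2, fell from 165 to 3.17 CPM in controls and from 237 to 1.51 CPM in knockouts, while Zic1 rose from 0.329 to 2.37 CPM and from 1.41 to 18.5 CPM. In the midbrain list 4 of 13 rose and 5 fell in controls, and 6 rose and 4 fell in knockouts. All 9 tested genes of the retinoic acid target list rose in each genotype, with medians of 4.36 and 4.74, among them Rarb from 0.174 to 32.2 CPM in controls.

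The main question of the design is how knockout cells differ from control cells on each day. At day 3, after retinoic acid, 4 of the 9 genes were called, all higher in the knockout: the forebrain factors Fezf2, Six3 and Lhx2 and the midbrain factor En2. Over all genes 5.19% were called, 2.75% higher and 2.44% lower. The median difference of the 9 genes was 1.23 on the log2 scale, beside 0.02 over all genes, and 7 of 9 were above 0. The 3 knockout samples lay above all 3 controls for Six3, Lhx2, Fezf2, En1 and En2 and below them for Hesx1, and the groups overlapped for Lhx5, Gbx2 and Egr2. The share of all genes whose groups stood apart was not determined on any day, so such ranges are a description only.

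Fezf2 at day 3 had the largest difference of the 9. Its knockout mean was 2.76 ± 1.10 CPM (SD, n = 3) against 0.333 ± 0.161 CPM in controls, and the log2 fold change was 2.97 ± 0.58 SE (adjusted p 0.011, edgeR). Against their own controls, lines 14 and 19 were higher by 3.35 and 2.96 and line 319 by 2.29 on the log2 scale. The lowest knockout sample, line 319 at 1.60 CPM, exceeded the highest control, HM1 replicate 1 at 0.511 CPM.

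Six3 at day 3 was at 0.483 ± 0.254 CPM in knockouts and 0.0978 ± 0.0417 CPM in controls (log2 fold change 2.22 ± 0.61 SE, adjusted p 0.047, edgeR). It rests on 4, 4 and 2 counts in the controls and 20, 10 and 30 in the knockouts. Line 319 was the highest sample, 2.99 above 1A4 on the log2 scale, and lines 14 and 19 were 1.15 and 1.20 above HM1. In the HM1-derived lines alone the fold change was 1.46 with an adjusted p of 0.18, and without 1A4 it was 1.47 with an adjusted p of 0.22.

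Lhx2 was at 4.91 ± 0.987 CPM in day 3 knockouts and 2.10 ± 0.452 CPM in controls (1.23 ± 0.34 SE, adjusted p 0.048, edgeR). The 3 knockout lines gave similar differences from their own controls, of 1.33, 1.21 and 1.08.

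En2 was at 2.81, 2.68 and 3.73 CPM in day 3 knockouts and 0.888, 1.60 and 1.67 CPM in controls, with a fold change of 1.15 ± 0.31 SE (log2, adjusted p 0.042, edgeR). Its line differences were 1.20, 1.13 and 1.14. En1, at 0.529, 0.652 and 0.673 CPM against 0.269, 0.301 and 0.156 CPM, was apart between the groups but not called (1.4 ± 0.54 SE, adjusted p 0.14, edgeR).

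The remaining 4 genes were not called at day 3. Their log2 differences were -1.19 ± 0.58 SE for Hesx1, 1.23 ± 0.74 SE for Lhx5, 0.76 ± 0.60 SE for Gbx2 and -1.25 ± 0.69 SE for Egr2 (adjusted p 0.24, 0.35, 0.49 and 0.31, edgeR). Gbx2 was raised in line 319, at 65.4 CPM, while lines 14 and 19 were within the control range.

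The day 3 calls rest on few samples. Without HM1 replicate 1 or without HM1 replicate 2 none of the 9 was called, although 37 and 17 genes were called in all. Fezf2 alone was called without 1A4 or without line 14. Without line 19, Fezf2, Six3 and En2 were called, and without line 319, Fezf2, Lhx2 and En2. With samples of the same series allowed to correlate (a random block in limma), En2 was no longer called (1.18, adjusted p 0.054, limma).

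**Figure D3:**
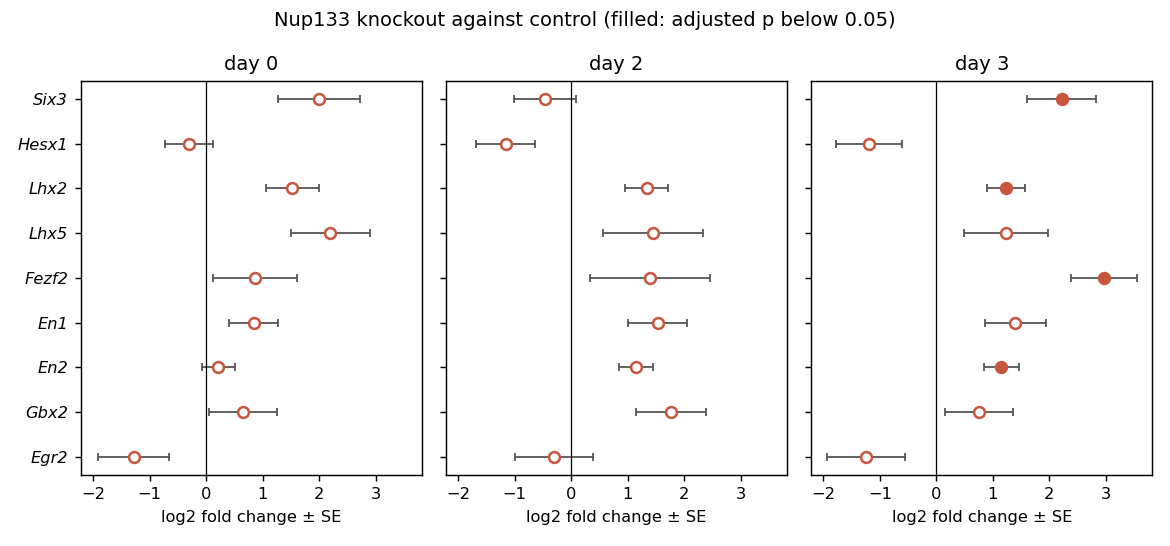
Log2 fold change of knockout against control for each gene at days 0, 2 and 3 (horizontal axis, whiskers 1 SE, 3 samples per group). Filled points have an adjusted p below 0.05; none is filled at day 0 or day 2, and Six3, Lhx2, Fezf2 and En2 are filled at day 3 with values of 2.22, 1.23, 2.97 and 1.15, while the fitted value of Six3 at day 0 and of Fezf2 at day 2 rests on 1 to 3 counts per control sample.

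At day 2, before retinoic acid, none of the 9 was called in edgeR, beside 1.6% of all genes (0.635% higher and 0.963% lower). Of the 9, 5 had an unadjusted p below 0.05 (edgeR), beside 3735 of all 18273 genes tested. These 5 were Lhx2 (1.34 ± 0.38 SE), En1 (1.53 ± 0.52 SE), En2 (1.14 ± 0.30 SE), Gbx2 (1.76 ± 0.62 SE) and Hesx1 (-1.16 ± 0.52 SE). Their adjusted p were 0.082, 0.13, 0.07, 0.14 and 0.23, and DESeq2 called 4 of them (Lhx2, En1, En2, Gbx2). The knockout samples lay above all controls for Lhx2, En1 and En2. Without line 319, edgeR called Lhx2, En2 and Gbx2 higher and Hesx1 lower. The share of all genes called at day 2 in DESeq2 or without line 319 is not given here. These counts can therefore not be set apart from a general gain in calls.

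En2 kept nearly the same distance between genotypes on both later days, 3.67 ± 0.335 against 1.67 ± 0.244 CPM at day 2 and 3.07 ± 0.571 against 1.39 ± 0.432 CPM at day 3 (SD, n = 3). For Lhx2 the day 2 difference came mainly from the HM1-derived lines, which were 1.76 and 2.01 above HM1, whereas line 319 was 0.21 above 1A4. The test of that difference between backgrounds gave -1.78 ± 0.53 SE (unadjusted p 0.0071, adjusted p 0.18, edgeR).

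For En1 at day 2 the pattern was turned around, with lines 14 and 19 at 0.74 and 0.72 above HM1 and line 319 at 3.49 above 1A4. The 1A4 value behind it is 2 counts (0.0404 CPM), and the test between backgrounds gave 3.75 ± 0.81 SE (adjusted p 0.084, edgeR). No gene of the 9 was called in the test between backgrounds on any day, where 0.969%, 0.547% and 0.0219% of all genes were called at days 0, 2 and 3 and 2, 3 and 0 of the 9 had an unadjusted p below 0.05 (edgeR). That test has a single sample per genotype in the blastocyst-derived cells on each day, which is assumed to vary like the others.

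At day 0 none of the 9 was called in edgeR or in DESeq2, beside 0.854% of all genes in edgeR (0.0657% higher and 0.788% lower). Lhx5, Lhx2 and Six3 had an unadjusted p below 0.05 (edgeR), beside 1946 of all 18273 genes tested. Each of these 3 was higher in all 3 knockout lines than in any control. Lhx5 was at 0.747 ± 0.118 CPM in knockouts and 0.157 ± 0.0456 CPM in controls (2.20 ± 0.70 SE, adjusted p 0.19, edgeR). Lhx2 was at 0.377 ± 0.119 and 0.126 ± 0.0443 CPM (1.53 ± 0.47 SE, adjusted p 0.16, edgeR). Six3 rests on 5 counts in all controls, with a pooled ratio of 4.86 and a counting interval of 1.85 to 16.1. Line 319 gave 20 of its 28 knockout counts, and without that line the fitted difference was 1.05 in place of 2.00.

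En1 was also higher in every day 0 knockout than in any control, by a margin too small to see for line 14 against HM1 replicate 1, both at 4.42 CPM to 3 digits (0.84 ± 0.43 SE, adjusted p 0.54, edgeR). Hesx1 (-0.30 ± 0.43 SE), En2 (0.22 ± 0.29 SE), Gbx2 (0.66 ± 0.60 SE), Fezf2 (0.87 ± 0.74 SE) and Egr2 (-1.28 ± 0.63 SE) overlapped between genotypes, with adjusted p from 0.51 to 0.93 (edgeR). Egr2 ran from 0.53 CPM in line 319 to 15.3 CPM in HM1 replicate 1.

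The forebrain and hindbrain factors were set against each other in each sample. The score is the mean log2(CPM + 0.5) of the 5 forebrain factors minus that of Gbx2 and Egr2. Gbx2 is also a LIF target and Egr2 is induced by serum, so the day 0 score need not show position along the axis. The added 0.5 CPM exceeds the mean level of Six3 in every group. At day 0 the difference was -3.81, -3.52 and -3.59 in controls and -3.38, -3.55 and -2.19 in knockouts. At day 2 it was -2.39, -2.07 and -1.38 and then -2.91, -3.19 and -1.45, and at day 3 -2.11, -3.30 and -3.18 and then -1.59, -2.13 and -2.37. The genotypes overlapped on all 3 days, with knockout minus control means of 0.60, -0.57 and 0.84 that changed sign between days. At day 3 the fitted knockout differences of the hindbrain factors went opposite ways, 0.76 for Gbx2 and -1.25 for Egr2, and neither was called.

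The mean difference from En1 and En2, formed in the same way, was higher on each later day in both genotypes. The control means were -2.66, -0.77 and -0.36 and the knockout means -2.76, -1.52 and -0.37. From day 0 to day 2 En1 and En2 themselves fell, in controls from means of 3.1 and 7.28 CPM to 0.34 and 1.675 CPM. Of the forebrain factors, Six3 and Lhx2 were called higher and Hesx1 lower over that step in controls. A higher difference is therefore not by itself a rise of the forebrain factors. The genotypes were apart at day 2, where the controls were at -0.97, -0.85 and -0.48 and the knockouts at -1.64, -1.34 and -1.58. At days 0 and 3 they overlapped. At day 2 the fitted knockout differences were 1.53 for En1 and 1.14 for En2. Those of the forebrain factors were 1.34 for Lhx2, 1.45 for Lhx5, 1.39 for Fezf2, -0.47 for Six3 and -1.16 for Hesx1, and none was called. The lower day 2 value in knockouts is therefore not by itself a lower level of the forebrain factors. No test is given for these scores, since the genes were chosen with earlier results of these data known.

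**Figure D4:**
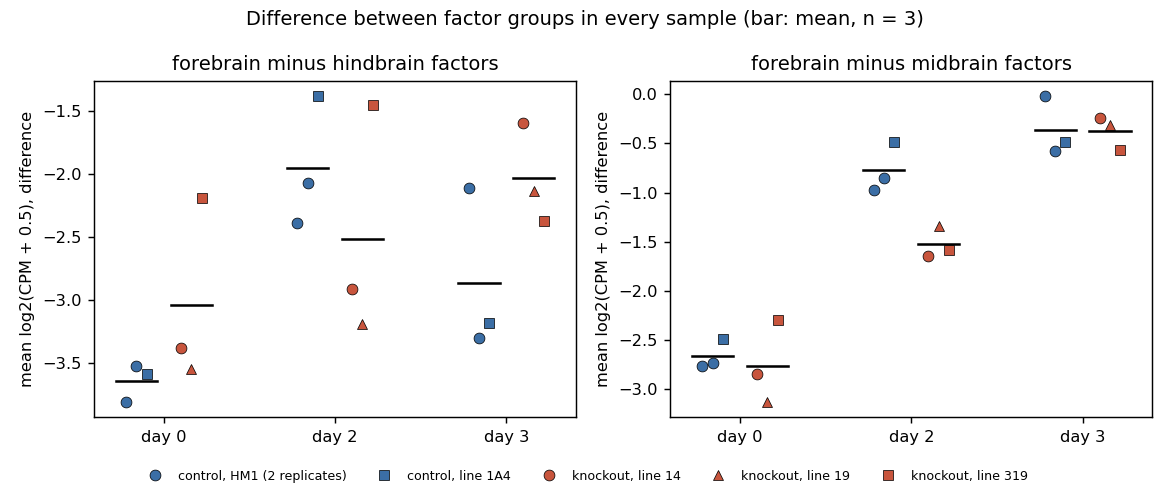
Mean log2(CPM + 0.5) of the 5 forebrain factors minus that of Gbx2 and Egr2 (left) and minus that of En1 and En2 (right) in every sample at days 0, 2 and 3, with a bar at the mean of 3 samples. Control and knockout points overlap on all days on the left, and are apart at day 2 on the right, at -0.97 to -0.48 and -1.64 to -1.34.

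The other patterning genes included some called higher in the day 3 knockouts in all 3 regional lists. Of all genes 2.75% were called higher and 2.44% lower, with a median of 0.02. A gene was assigned to a region by list only, and its place of expression was not tested here. Of the forebrain list 3 of 16 tested genes were called higher and none lower (median 0.47), among them Zic1 (2.94 ± 0.44 SE) and Sp8 (2.03 ± 0.47 SE). Of the hindbrain list 5 of 15 were called higher and none lower (median 1.00), among them Irx5 (2.04 ± 0.36 SE), Irx3 (1.55 ± 0.40 SE) and Meis1 (1.16 ± 0.19 SE). Of the midbrain list 2 of 13 were higher and 1 lower (median 0.33), with Fgf15 and Pax2 higher by 1.88 ± 0.36 SE and 1.70 ± 0.39 SE and Spry1, a feedback inhibitor of FGF signalling, lower by 0.99 ± 0.26 SE. The adjusted p of the genes named here ran from 0.003 to 0.043 (edgeR).

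Of 9 listed signalling antagonists that keep the neural plate anterior, 4 were called lower in the knockout at day 2 and none higher (median -0.78), beside 0.963% of all genes called lower. These were Cer1 at 0.0839 against 4.37 CPM, Nog at 0.136 against 1.99 CPM, Dkk1 at 0.166 against 1.31 CPM and Frzb at 0.42 against 1.58 CPM (adjusted p 0.00031, 0.021, 0.035 and 0.035, edgeR). At day 0, 2 of 9 were called lower, beside 0.788% of all genes, and none higher. At day 3 the single call was Frzb, higher at 11.2 against 2.41 CPM (adjusted p 0.0047, edgeR), beside 2.75% of all genes called higher.

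Some markers of other cell types also stood apart between the genotypes at day 3, where the knockout calls were made. The summed level of 5 endoderm markers (Sox17, Gata4, Gata6, Foxa1, Sox7) was 49.0 to 54.9 CPM in knockouts and 19.0 to 32.4 CPM in controls. Foxa1 (mean 15.1 against 6.49 CPM), Sox7 (14.8 against 4.52 CPM) and Gata4 (10.8 against 4.27 CPM) made most of it. Sox17 overlapped between the genotypes and Gata6 was at 3.32 against 3.45 CPM. The sum of 6 mesendoderm markers (T, Eomes, Mixl1, Gsc, Foxa2, Lhx1) was 36.2 to 85.0 CPM in knockouts and 20.3 to 29.1 CPM in controls. Most of the mesendoderm difference was Lhx1, which neural cells also express, at a mean of 42.3 against 9.02 CPM. Eomes (3.90 against 1.83 CPM), Mixl1 (0.722 against 0.409 CPM) and Gsc (0.574 against 0.216 CPM) had higher means too. T was at 1.66 against 3.85 CPM and Foxa2 at 6.24 against 8.12 CPM. Neural progenitor markers (Sox1, Pax6, Nes, Hes5, Pou3f2) ran from 228 to 887 CPM in knockouts and from 250 to 307 CPM in controls. The summed neural crest markers were at 16.3 to 20.7 against 27.1 to 33.3 CPM, mostly through Ets1 (mean 9.45 against 21.5 CPM), while Pax3 was at 4.82 against 1.71 CPM. The summed surface ectoderm markers were at 43.1 to 88.2 against 120 to 267 CPM, mostly through the keratins Krt8 and Krt18, while Gata3 was at 3.88 against 1.34 CPM. In no day 3 group was any of these markers at 0 in every sample. Some lists stood apart before retinoic acid too. At day 0 the mesendoderm sum was 12.4 to 16.9 CPM in knockouts and 54.65 to 115.5 CPM in controls. The day 0 surface ectoderm sum was 26.7 to 39.2 and 112.5 to 302.2 CPM. At day 2 both sums overlapped, while the neural crest and neural progenitor sums were lower in every knockout than in any control. The part of these cell types in the differences of the 9 genes was not tested.

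Feeder fibroblast markers (8 genes) were at 104 to 196 CPM in day 0 controls and 73.9 to 132 CPM in day 0 knockouts, and at 168 to 256 and 107 to 172 CPM at day 3. Early neuron markers (Tubb3, Elavl3, Dcx, Stmn2) were at 97.0 to 125 CPM in day 3 controls and 79.96 to 112 CPM in day 3 knockouts, overlapping. The part of these cells in the levels of the 9 genes was not tested.

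Among the 9 genes themselves the levels followed each other most closely for En1 and En2 (Pearson r of log2 CPM 0.86 over 18 samples) and for Lhx2 and Fezf2 (0.76), and most oppositely for Hesx1 and Lhx2 (-0.90). Samples share lines, days and media, so these values describe the time course and carry no test. Among 12952 genes whose mean reached 1 CPM, the nearest pattern to Hesx1 was that of Trim25 (0.955). Among the 12951 other such genes it was Mxd4 for Lhx2 (0.953), Sox2 for En1 (0.943), Gle1 for En2 (0.936), Hoxa7 for Gbx2 (0.847) and Ccnl2 for Egr2 (0.879). For Fezf2 it was Zfp503 (0.901), for Lhx5 Tmem251 (0.814) and for Six3 Rab39b (0.802), the least close of the 9.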

How the data were processed

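Bases were called with bcl2fastq 2.17.1.14, aligned to mm10 with STAR 2.4.0k and counted with SAMtools and HTSeq, per the submitters' processing notes. The deposited files hold raw counts per Ensembl transcript for 72 libraries, with no normalization by the authors. The 4 technical libraries of a sample differed about as counting noise does (chi-square per degree of freedom 1.009 to 1.028) and were added up as 1 sample. Of 110379 transcript identifiers 108214 matched GENCODE M21, and 1.44 to 2.46% of counts in unmatched ones were left out. The transcript with the highest total represented each gene. The genes, regional lists, markers and motifs were chosen with earlier results of these data known.

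The counts of 18273 genes (filterByExpr over 6 groups) were fitted in edgeR 4.0.16 (R 4.3.3) with TMM factors, 1 term per genotype and day and 1 for background (HM1-derived or blastocyst-derived), with 11 residual degrees of freedom. Quasi-likelihood tests were adjusted by Benjamini-Hochberg and called below 0.05. A second fit with 12 cells tested differences between backgrounds. The steps were tested on simulated data. CPM use TMM library sizes. The text names the 9 genes and, per other list, up to 4 called genes with the largest change and a mean of at least 1 CPM. Some listed genes that this rule names are not reported here. Alternatives were other scalings, DESeq2 1.42.0, no filter, other transcripts, no background term, 1 background, single days, left-out series and a block by series. The block was a fixed term in edgeR for day changes and interactions, and a random one in limma 3.58.1 for genotypes. Samples of the same cell line pair the days: in 16 of 18 such pairs the deviations correlated above 0.1 (-0.09 to 0.40).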

Additional observations from a re-analysis of the deposited data

How the results depend on the processing

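Counts of the 9 genes called changed as follows. Knockout against control at day 3 (4) gave 2 with upper-quartile scaling and with no filter, 1 with summed transcripts and with no background term, and 0 to 3 over left-out series. At day 0 (0) it gave 1 with summed transcripts (Lhx2, 2.02) and 1 with the day fitted alone (Lhx5, 2.23). At day 2 (0) it gave 1 in the HM1-derived lines alone, 4 with DESeq2 and 0 to 4 over left-out series. Left-out series gave 3 to 7 for day 0 to day 2 in controls (6), 1 to 5 for day 2 to day 3 in controls (4) and 2 to 4 for day 0 to day 2 in knockouts (4). The test between backgrounds (0) gave 0 to 1 over left-out series at day 0 and 0 to 2 at day 2, and at day 2 2 with no filter and 1 without line 19 at that day. The replicate block gave 3 calls at day 3 and 5 for day 0 to day 2 in knockouts (Lhx5 added, -1.87), and changed no other call. No forebrain-minus-hindbrain value moved beyond the replicate spread, and the forebrain-minus-midbrain value was not rerun. Of 1164 repeats of 73 single-gene results, 1077 kept direction and side of the threshold, 50 lost a call, 29 gained one and 8 changed sign, all among values that were not called: Fezf2 at day 0 in the HM1-derived lines (-0.10), Egr2 at day 2 in those lines (0.39) and over left-out series (-0.64 to 0.43), En1 from day 2 to day 3 in controls over left-out series (-0.78 to 0.16), Six3 and Gbx2 from day 0 to day 2 in knockouts over left-out series (-0.13 to 1.19 and -0.98 to 0), and Gbx2 there in the HM1-derived lines (0.01). The causes were not tested, and the genes of the other lists were not rerun. With replicate 3 of either genotype left out, the test between backgrounds could not be fitted. Counts under 10 in at least 1 sample limit Six3, Hesx1, Lhx2, Lhx5, Fezf2 and En1.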

Other observations

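Against their own controls, lines 14 and 19 went one way and line 319 the other in 3 of 27 combinations of gene and day. A combination in which a line and its own controls all held 3 counts or fewer was not counted. Egr2 at day 2 was at 0.39 and 0.36 in lines 14 and 19 and at -1.64 in line 319 (log2 CPM, knockout minus control). En2 at day 0 was at 0.51, 0.58 and -0.67, and Six3 at day 2, where line 19 had 1 count, at -0.26, -1.89 and 0.16. The test of the difference between backgrounds called none of these 3 (edgeR), with the lowest adjusted p, 0.25, for En2 at day 0.

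Cyp26a1, the retinoic acid-degrading enzyme of the anterior neural plate, was lower in the knockout before retinoic acid and higher after it: 0.683 against 9.33 CPM at day 0, 0.132 against 4.81 CPM at day 2 and 150 against 63.6 CPM at day 3 (adjusted p 7.5e-05, 0.00023 and 0.028, edgeR). Fgf8, the signal of the midbrain-hindbrain boundary, was lower in day 0 knockouts, at 0.687 against 6.88 CPM (adjusted p 0.0084, edgeR), when En1 and En2, which act downstream of it in the embryo, were not called. The summed mesendoderm markers were also lower in day 0 knockouts, and their part in these differences was not tested.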
